A study of Mus musculus with 36 samples.

Results

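ENSMUST00000029722.6 and ENSMUST00000074680.7 are 2 rows of a table of read counts per mouse transcript, chosen from 138835 rows because the first was abundant outside Tet2KO cells and the second was abundant in Tet2KO cells. Both were among the 26820 transcripts that passed a filter on low counts. The choice used the levels in the Tet2KO, Control and Dnmt3aKO libraries, so the Tet2KO differences below are descriptions with no test. The sources used here do not pair transcript identifiers with genes, transcript lengths or sequences, so both rows are given by identifier. Whether the 2 transcripts are similar copies that can take each other's reads was not tested.

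Cells were sorted from the bone marrow of C57BL/6 mice aged 8 weeks that all carried the Vav-driven Cre recombinase, which acts throughout blood formation. Control mice had intact Dnmt3a and Tet2, Dnmt3aKO mice carried floxed Dnmt3a (the protocol writes fl/fl "or +", so the second allele is not clear), and Tet2KO mice were Tet2 fl/fl. Hematopoietic stem cells (HSCs) were sorted as lineage-negative, cKit+, Sca1+, CD150+, CD48- cells, and restricted progenitors (RPs) for RNA as the CD150-, CD48+ cells of the same compartment. RNA came from pools of male and female mice, called biological replicates, with pool sizes that differ within the text, so the spread is between pools and not between single animals. There were 3 Control HSC, 3 Dnmt3aKO HSC, 4 Tet2KO HSC, 4 Control RP and 4 Tet2KO RP libraries. HSC libraries carry the number in their label, and RP libraries the letters a to d, which only name them.

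DNMT3A adds methyl groups to cytosine in DNA, and TET2 oxidises them, a step towards their removal. Both act in HSCs, the cells that renew themselves and give rise to all blood lineages, and RPs are more limited descendants. A transcript's count depends on how much RNA the gene makes and on where the reads of that RNA are placed. Mammalian genomes hold many near-identical copies of highly expressed genes, and for those the placement of a read can turn on few bases.

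The 18 libraries held 3721009 to 9366421 counts. Reduced to the smallest total, HSC libraries numbered 4 held 25496 to 33540 transcripts, the fewest of their groups, against 33584 to 44049 in the other HSC libraries and 39880 to 44910 in the RP libraries. The comparisons between groups that include HSC libraries numbered 4 are therefore also given without them. Levels are counts per 1000000 (CPM) of a library size scaled by TMM, which aligns libraries on the bulk of their transcripts. The levels of Tet2, Dnmt3a and cell type markers, which would check the labels, were not analysed here because the identifiers could not be paired with genes.

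ENSMUST00000029722.6 was one of the most abundant transcripts of Control cells and a minor one in Tet2KO cells. It was at 1668, 1801 and 1903 CPM in Control HSC replicates 2, 3 and 4. In Dnmt3aKO HSC replicates 1, 2 and 4 it was at 2224, 1656 and 1330.1 CPM. In Tet2KO HSC replicates 1 to 4 it was at 30.4, 28.6, 33.1 and 25.8 CPM. All 4 Tet2KO HSC libraries thus lay far below the 6 other HSC libraries, while the Dnmt3aKO values spread to both sides of the Control values. The RP libraries had the same order. Control RP replicates a to d were at 2565, 2196, 2294 and 1694 CPM. Tet2KO RP replicates a to d were at 38.4, 30.0, 39.7 and 52.0 CPM. No Tet2KO RP library came near a Control RP library.

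ENSMUST00000074680.7 had the opposite pattern. It was at 5.13, 4.38 and 5.40 CPM in Control HSC replicates 2, 3 and 4, and at 4.63, 4.89 and 6.88 CPM in Dnmt3aKO HSC replicates 1, 2 and 4. Tet2KO HSC replicates 1 to 4 were at 1873, 1499, 1187 and 1683 CPM. The Tet2KO values reached the range that ENSMUST00000029722.6 held in the other HSC libraries, and the lowest of them was below that range. Control RP replicates a to d were at 11.8, 10.8, 7.40 and 4.30 CPM. Tet2KO RP replicates a to d were at 1382, 1539, 2508 and 1478 CPM, of which replicate c was the highest by a wide gap.

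**Figure D1:**
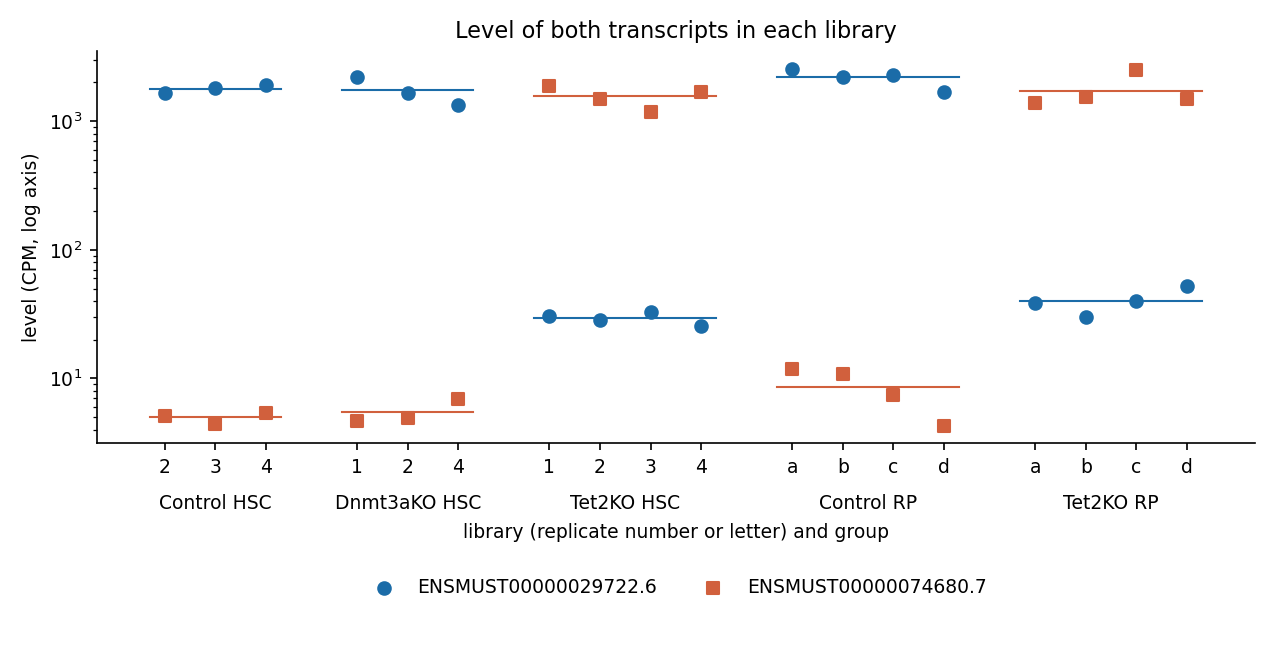
Level of ENSMUST00000029722.6 (circles) and ENSMUST00000074680.7 (squares) in each of the 18 libraries, in CPM on a log axis, with lines at the group means. In the 10 Control and Dnmt3aKO libraries the circles lie at 1330.1 to 2565 CPM and the squares at 4.30 to 11.8, and in the 8 Tet2KO libraries the squares lie at 1187 to 2508 CPM and the circles at 25.8 to 52.0.

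The means restate these levels with their error. ENSMUST00000029722.6 was at 1791 ± 118 CPM (SD, n = 3) in Control HSCs and 29.5 ± 3.08 (n = 4) in Tet2KO HSCs, which is 60.7-fold lower (log2 fold change -5.92, SE 0.25). In RPs it was at 2187 ± 364 CPM in Control and 40.02 ± 9.06 in Tet2KO (4 libraries each), which is 54.6-fold lower (log2 fold change -5.77, SE 0.25). ENSMUST00000074680.7 was at 4.97 ± 0.53 CPM in Control HSCs and 1560.3 ± 292 in Tet2KO HSCs, which is 313-fold higher (log2 fold change 8.29, SE 0.42). In RPs it was at 8.59 ± 3.43 CPM in Control and 1727 ± 525 in Tet2KO, which is 203-fold higher (log2 fold change 7.67, SE 0.36). Without the HSC libraries numbered 4 the HSC values were -5.85 and 8.29 on the log2 scale. Both transcripts therefore stood apart between genotypes in both cell types, with no overlap between libraries. How many of all transcripts show no overlap was not counted, so the lack of overlap is a description only. Over all transcripts, edgeR's quasi-likelihood test called 0.198% in the HSC comparison and 0.134% in the RP comparison, and these contrasts chose the pair. The HSC and RP comparisons share no library, but the choice of the pair used both, so neither is an independent repeat of the other.

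Each transcript took a different place in the order of abundance by genotype. ENSMUST00000029722.6 ranked 40 to 58 from the top in Control HSCs, 27 to 125 in Dnmt3aKO HSCs and 26 to 44 in Control RPs. It ranked 4084 to 4926 in Tet2KO HSCs and 3023 to 4329 in Tet2KO RPs. ENSMUST00000074680.7 ranked 32 to 61 in Tet2KO HSCs and 31 to 58 in Tet2KO RPs, and between 7324 and 12948 in every Control and Dnmt3aKO library. Each transcript thus held, in its own genotypes, a place among the most counted transcripts, which is a statement on reads and not on molecules, since lengths were not used. Of 142 transcripts with a mean of at least 1000 CPM in at least 1 group, 1 was at least 16-fold lower and 1 at least 16-fold higher in Tet2KO in both cell types, and these were the pair. The choice of the pair used these same values, so this count restates the choice and gives it no support. For each of the other abundant transcripts the smaller of its HSC and RP folds was taken, and the largest of these was 2.37 upward and 2.31 downward.

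The sum of the pair varied far less than either transcript. It was 1673, 1805 and 1909 CPM in Control HSC replicates 2, 3 and 4, and 2229, 1661 and 1337 CPM in Dnmt3aKO HSC replicates 1, 2 and 4. It was 1903, 1527, 1219.8 and 1709 CPM in Tet2KO HSC replicates 1 to 4. The Tet2KO sums overlapped those of both other HSC groups, with 2 of 4 below the lowest Control HSC sum. In RPs the sum was 2577, 2207, 2301 and 1699 CPM in Control replicates a to d. It was 1420.01, 1569, 2548 and 1529.96 CPM in Tet2KO replicates a to d. Here 3 of 4 Tet2KO sums lay below every Control RP sum, and Tet2KO RP replicate c lay above 3 of the 4.

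**Figure D2:**
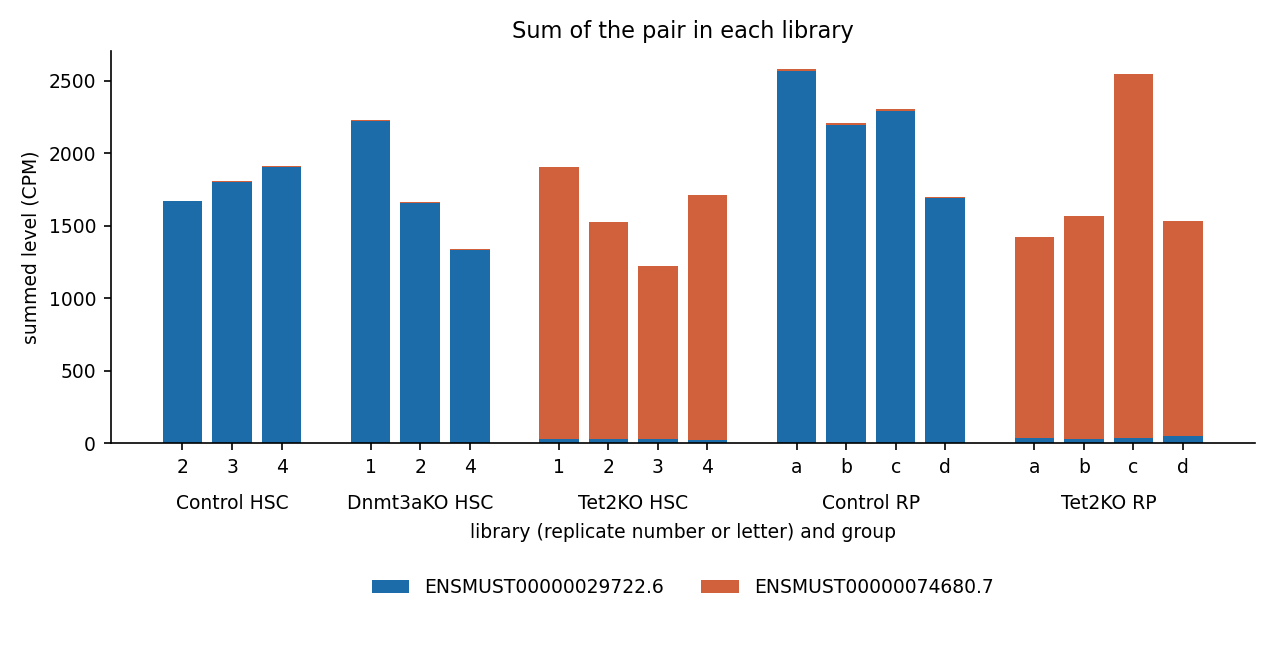
Summed level of the pair in each library, in CPM, as bars from 0 split into ENSMUST00000029722.6 (blue) and ENSMUST00000074680.7 (orange). The bars are almost wholly blue in Control and Dnmt3aKO libraries and almost wholly orange in Tet2KO libraries, with heights between 1219.8 and 2577 CPM.

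With both rows added into 1 row before fitting, the sum was 1796 ± 118 CPM (n = 3) in Control HSCs and 1589.8 ± 291 (n = 4) among Tet2KO HSCs (log2 fold change -0.18, SE 0.24, and -0.19 without the HSC libraries numbered 4). In RPs it was 2196 ± 367 CPM in Control and 1767 ± 525 in Tet2KO, with 4 libraries each (log2 fold change -0.31, SE 0.22). Without Tet2KO RP replicate c this fold change was -0.55 (SE 0.21). Neither difference was tested, since the pair was chosen for reaching similar levels. As a share of all counts, which needs no scaling, the sum was 0.153% to 0.185% in Control HSCs, 0.141% to 0.205% in Tet2KO HSCs, 0.176% to 0.251% in Control RPs and 0.142% to 0.260% in Tet2KO RPs. These ranges overlap within each cell type. The widest range was that of Dnmt3aKO HSCs, at 0.0986% to 0.241%, with replicate 4 lowest.

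Over the 18 libraries the sum had an SD of 0.31 on the log2 scale, against 2.98 for ENSMUST00000029722.6 and 4.13 for ENSMUST00000074680.7. Among 79 other transcripts with a mean of 1000 to 3000 CPM the median SD was 0.46, and 9 had a smaller SD than the sum. The highest sum was 2.11 times the lowest. The sum thus lay towards the steady end of transcripts counted at a like level. The pair was picked for reaching similar levels, so a steady sum followed in part from the choice, and this place is a description only.

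The smaller partner was never absent. In Control and Dnmt3aKO libraries ENSMUST00000074680.7 had 23 to 56 counts, and in Tet2KO libraries ENSMUST00000029722.6 had 128 to 359. In Control HSC replicates 2, 3 and 4, ENSMUST00000074680.7 held 0.306% (Wilson 95% interval 0.212 to 0.442), 0.243% (0.168 to 0.351) and 0.283% (0.194 to 0.411) of the pair's counts. In Dnmt3aKO HSC replicates 1, 2 and 4 it held 0.208% (0.150 to 0.287), 0.294% (0.196 to 0.441) and 0.515% (0.370 to 0.715). Of these 6 libraries, Dnmt3aKO replicates 1 and 4 had intervals that did not overlap, and the others overlapped within their group. The library with the highest share, Dnmt3aKO replicate 4, was also the one with the fewest transcripts at equal depth, whose part in the share was not tested. Control RP replicates a to d gave 0.459% (0.354 to 0.596), 0.490% (0.358 to 0.672), 0.322% (0.231 to 0.447) and 0.253% (0.181 to 0.353), so that replicate d lay apart from a and b.

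In Tet2KO libraries the smaller partner held a larger part. ENSMUST00000029722.6 held 1.60% (1.38 to 1.84), 1.87% (1.65 to 2.12), 2.71% (2.45 to 3.00) and 1.51% (1.27 to 1.79) in Tet2KO HSC replicates 1 to 4. It held 2.70% (2.33 to 3.13), 1.91% (1.64 to 2.23), 1.56% (1.35 to 1.80) and 3.40% (3.05 to 3.78) in Tet2KO RP replicates a to d. These shares differed between libraries of 1 group by more than counting error, which is all that the intervals cover. All 8 lay above the highest share of the other partner in any Control or Dnmt3aKO library.

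**Figure D3:**
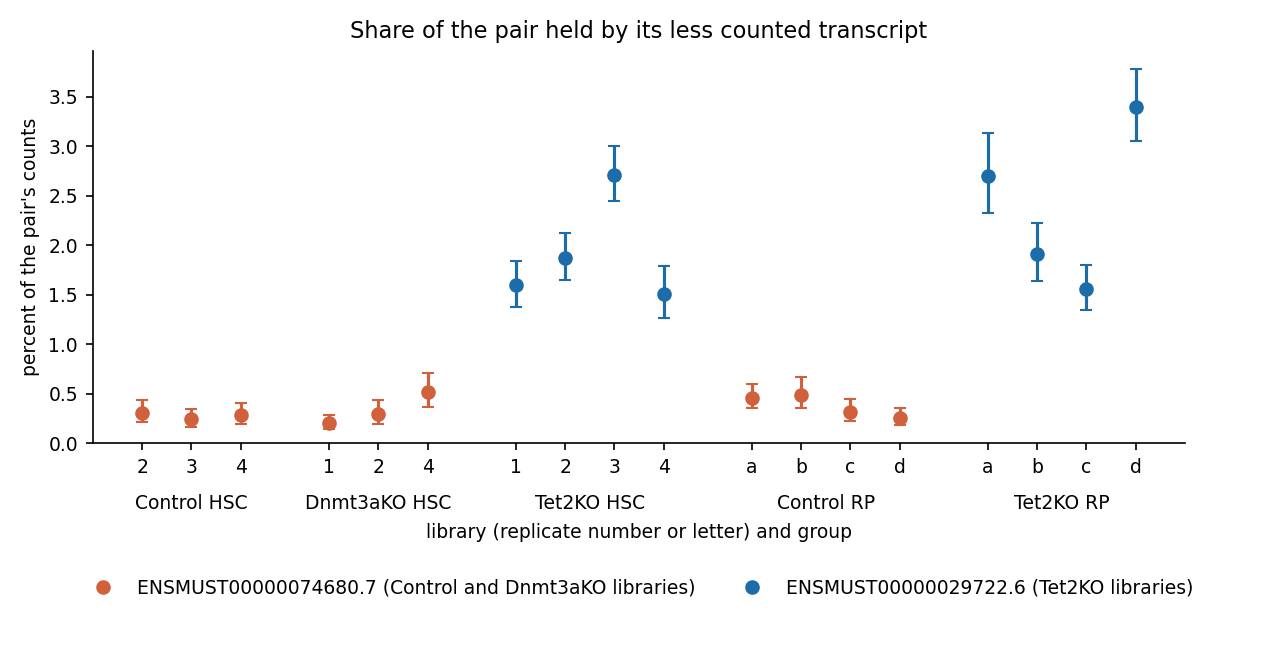
Percent of the pair's counts held by its less counted transcript in each library, which is ENSMUST00000074680.7 in Control and Dnmt3aKO libraries (orange) and ENSMUST00000029722.6 in Tet2KO libraries (blue). Bars are Wilson 95% intervals of counting error. The orange points lie at 0.208% to 0.515% and the blue points at 1.51% to 3.40%.

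Dnmt3aKO and Control HSCs were compared because the choice of the pair did not rest on their difference. It did take ENSMUST00000029722.6 as abundant outside Tet2KO cells, which includes both groups. A large difference between these groups was thus unlikely from the start, and the test is not free of the choice. Neither transcript passed the threshold. ENSMUST00000029722.6 was at 1737 ± 452 CPM in Dnmt3aKO HSCs and 1791 ± 118 in Control HSCs (3 libraries each), with a log2 fold change of -0.044 ± 0.23 (SE) and an adjusted p of 1 by edgeR's quasi-likelihood test, adjusted over all transcripts by Benjamini-Hochberg. ENSMUST00000074680.7 was at 5.47 ± 1.23 CPM against 4.97 ± 0.53 (log2 fold change 0.13, SE 0.35, adjusted p = 0.990, edgeR). Their sum was at 1742 ± 451 CPM against 1796 ± 118 (log2 fold change -0.044, SE 0.25, adjusted p = 1, edgeR). The groups overlapped in all 3 measures. edgeR called 0 of the 2 members, with 0 at an unadjusted p under 0.05, and DESeq2 called 0. Of all transcripts edgeR called 0.0149% and DESeq2 0.72%. With SEs of 0.23 to 0.35 and adjustment over all transcripts, differences well above these SEs could also go undetected.

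Without HSC libraries numbered 4, these fold changes turned to 0.14 for ENSMUST00000029722.6, -0.027 for ENSMUST00000074680.7 and 0.14 for the sum, again below the threshold. The share of the pair on ENSMUST00000074680.7 was 0.339% ± 0.158 in Dnmt3aKO and 0.277% ± 0.032 in Control HSCs (exact two-sided permutation p = 0.8, adjusted over 3 comparisons 0.8, smallest possible p 0.1). Without the HSC libraries numbered 4 the difference in share was -0.0235 percentage points.

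The cell types were compared within the Control genotype. The choice of the pair took ENSMUST00000029722.6 as abundant in Control cells of both types. A large difference in its level or in the sum was thus unlikely from the start, and these tests are not free of the choice. The pair did not pass the threshold. ENSMUST00000029722.6 was at 2187 ± 364 CPM in Control RPs (n = 4) and 1791 ± 118 in Control HSCs (n = 3), with a fitted log2 difference of 0.29 ± 0.22 (SE, edgeR adjusted p = 0.601). ENSMUST00000074680.7 was at 8.59 ± 3.43 CPM against 4.97 ± 0.53 (log2 fold change 0.77, SE 0.32, unadjusted p = 0.0284, adjusted p = 0.264, edgeR). For the sum, at 2196 ± 367 against 1796 ± 118 CPM, the fitted log2 difference was 0.29 ± 0.24 (SE, edgeR adjusted p = 0.645). Without the HSC libraries numbered 4 the 3 values were 0.28, 0.77 and 0.28. In each measure 3 of the 4 RP libraries lay above every HSC library, and replicate d lay inside or below the HSC values. edgeR called 0 of the 2 members, with 1 at an unadjusted p under 0.05, and DESeq2 called 0. Of all transcripts edgeR called 1.9% and DESeq2 5.71%. The share on ENSMUST00000074680.7 was 0.381% ± 0.113 in RPs and 0.277% ± 0.032 in HSCs (exact two-sided permutation p = 0.229, adjusted 0.514, smallest possible p 0.0571). The difference of 0.104 percentage points was 0.0674 without Control RP replicate b and 0.107 without the HSC libraries numbered 4. In sorted bulk samples, fewer cells of a type and less RNA per cell cannot be told apart.

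Tet2KO RPs and Tet2KO HSCs gave the same comparison in the other genotype. The same limit holds here, since the choice took ENSMUST00000074680.7 as abundant in Tet2KO cells of both types. ENSMUST00000074680.7, the major partner there, was at 1727 ± 525 CPM in RPs and 1560.3 ± 292 in HSCs (4 libraries each), with a fitted log2 difference of 0.15 ± 0.26 (SE, edgeR adjusted p = 0.955), which was -0.098 without Tet2KO RP replicate c. ENSMUST00000029722.6 was at 40.02 ± 9.06 CPM against 29.5 ± 3.08 (log2 fold change 0.44, SE 0.21, unadjusted p = 0.0447, adjusted p = 0.463, edgeR). For the sum, at 1767 ± 525 against 1589.8 ± 291 CPM, the fitted log2 difference was 0.15 ± 0.22 (SE, edgeR adjusted p = 0.939), and without Tet2KO RP replicate c it was -0.086. Without the HSC libraries numbered 4 the values were 0.35 for ENSMUST00000029722.6, 0.16 for ENSMUST00000074680.7 and 0.16 for the sum. The groups overlapped in all 3 measures. edgeR called 0 of the 2 members, with 1 at an unadjusted p under 0.05, and DESeq2 called 0. Of all transcripts edgeR called 1.81% and DESeq2 3.99%. The share on ENSMUST00000074680.7 was 97.6% ± 0.823 in RPs and 98.1% ± 0.549 in HSCs (exact two-sided permutation p = 0.343, adjusted 0.514, smallest possible p 0.0286). The difference of -0.470 percentage points was -0.135 without Tet2KO RP replicate d, -0.749 without replicate c, -0.734 without Tet2KO HSC replicate 3 and -0.333 without the HSC libraries numbered 4. In both genotypes the less counted partner had the larger fold change between cell types, on 27 to 56 counts a library in Control cells and 128 to 359 in Tet2KO cells, and this difference between partners was not tested.

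**Figure D4:**
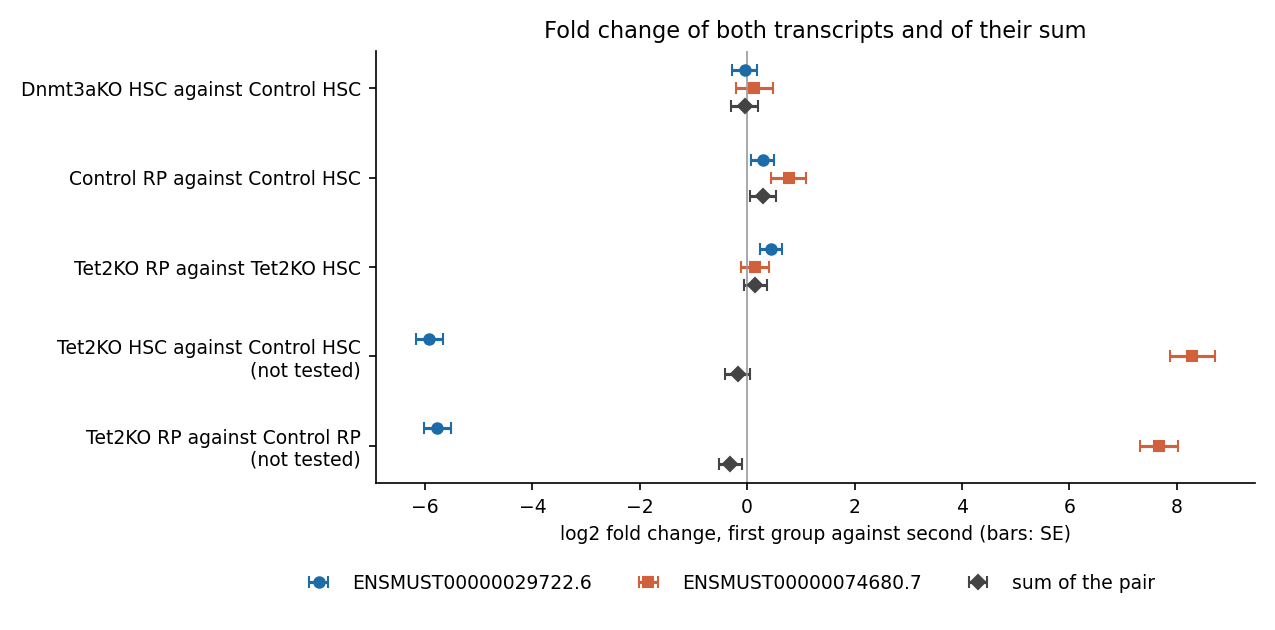
Log2 fold change of ENSMUST00000029722.6 (circles), ENSMUST00000074680.7 (squares) and their sum (diamonds) in 5 comparisons, with bars for the SE of the fit. The 3 upper comparisons were tested and none of their values passed the threshold. In the Tet2KO comparisons, which were not tested, the transcripts lie at -5.92 and 8.29 in HSCs and -5.77 and 7.67 in RPs, and the sums at -0.18 and -0.31.

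Within libraries of like Tet2 genotype the partners did not follow one pattern. Over the 8 Tet2KO libraries Pearson's r of their log2 levels was 0.031 and Spearman's rho -0.19. Over the 10 other libraries these were 0.53 and 0.44. The points share library depth and scaling, and the smaller partner rests on few counts, so these values describe the libraries and show no relation. A correlation over all libraries is not given for the pair, since the libraries form separate clusters by Tet2 genotype.

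The transcripts most like each member were sought among 11981 others with a mean of at least 5 CPM, by the Pearson correlation of log2 CPM over the 18 libraries. This measure follows mainly the split by Tet2 genotype. ENSMUST00000161230.2 was most like ENSMUST00000029722.6, with a correlation of 0.95. It was at 172 to 241 CPM in Control HSCs, 69.4 to 324 in Dnmt3aKO HSCs, 1.21 to 10.2 in Tet2KO HSCs, 102 to 186 in Control RPs and 4.08 to 6.52 in Tet2KO RPs. Inside the genotype classes it did not follow its partner, with correlations of 0.26 over the 8 Tet2KO libraries and -0.81 over the 10 others, and by Spearman correlation it ranked 81. ENSMUST00000178598.2 was most like ENSMUST00000074680.7, with a correlation of 0.99, and also ranked 1 by Spearman. It was at 0.999 to 1.28 CPM in Control HSCs, 0.385 to 1.77 in Dnmt3aKO HSCs, 69.0 to 81.3 in Tet2KO HSCs, 0.632 to 3.42 in Control RPs and 81.1 to 126 in Tet2KO RPs. Outside Tet2KO it never exceeded 3.42 CPM, so it reached the mean of 5 CPM only through the Tet2KO libraries, and its likeness restates the split. Its correlations inside the classes were 0.44 over the 8 Tet2KO libraries and 0.70 over the 10 others, where it was near the floor. The transcripts next in likeness had correlations of 0.94 and 0.99. The one nearest to ENSMUST00000029722.6 after the first fell short of its range, with a mean of 485 CPM in Control HSCs and 192 in Tet2KO HSCs. The one nearest to ENSMUST00000074680.7 after the first was at 0.734 CPM in Control HSCs and 46.6 in Tet2KO HSCs, and it too reached the mean of 5 CPM only through the Tet2KO libraries.

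**Figure D5:**
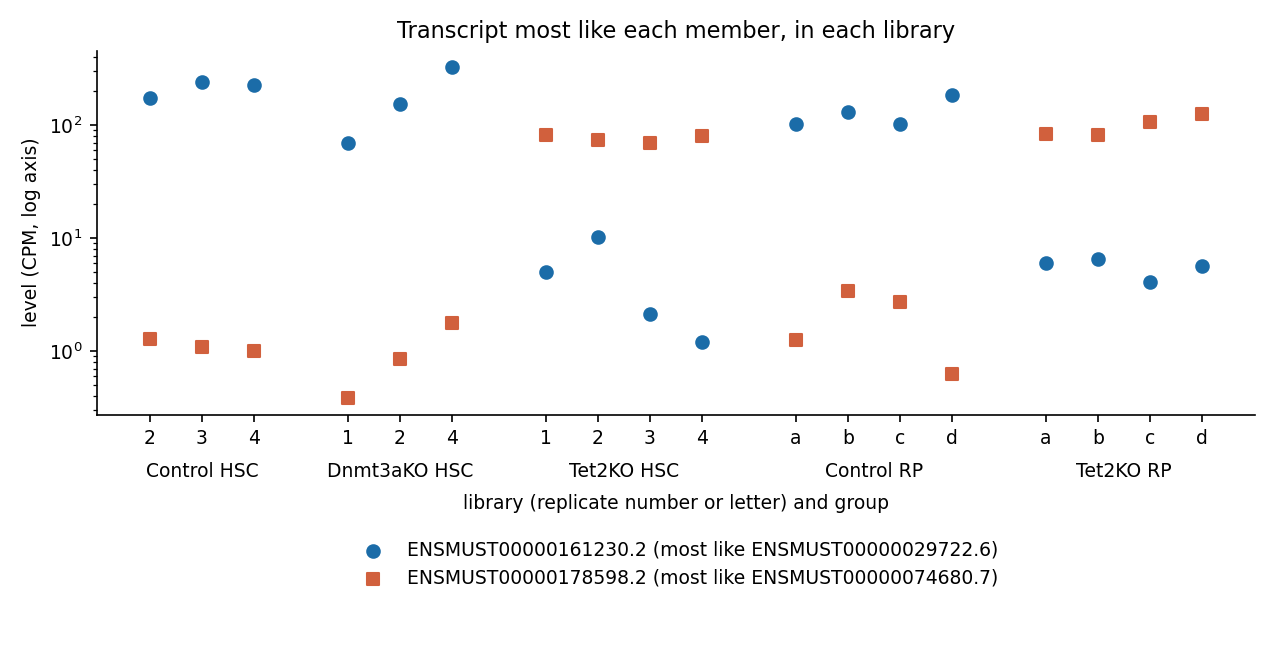
Level of the transcript most like each member in each library, in CPM on a log axis: ENSMUST00000161230.2 (circles) and ENSMUST00000178598.2 (squares). The circles lie at 69.4 to 324 CPM outside Tet2KO and at 1.21 to 10.2 in Tet2KO, and the squares at 0.385 to 3.42 outside Tet2KO and at 69.0 to 126 in Tet2KO.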

How the data were processed

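The authors deposited 1 table of raw read counts per Ensembl transcript (exons of GENCODE models, from its name). Per the submitters' processing notes, the tools include HTSeq 0.8.0, STAR 2.0.4, Subread and featureCounts, with build mm10. How these were combined, the use of strand, and what was done with reads that fit several places are not stated in those sources. Each can affect how reads are placed between similar rows, and whether any did so for the pair was not tested. Of 36 columns of counts, 18 matched samples and 18 matched none and were not used. HSC columns carry genotype and number without a cell type. RP columns carry numbers that differ from the titles and were assigned to groups only. The 18 ATAC samples were not analysed here.

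Transcripts were kept with filterByExpr (minimum count 10, minimum total 15), which left 26820 with 98.9% of counts. One model over all 18 libraries, with group as its term and TMM scaling, was fitted by quasi-likelihood (edgeR 4.0.16, R 4.3.3). The threshold was an adjusted p of 0.05. The SE is the log2 fold change divided by the square root of F. For the sum, both rows were replaced by their sum and the table was refitted. The fit was also run on simulated data with planted changes larger than any of the tested differences of the pair. That run does not gauge how well differences of their size are detected. Alternatives were other scalings, no filter, DESeq2 1.42.0, fits of fewer groups, a replicate block and leaving out libraries. No 2 libraries of a group agreed within sampling noise (smallest chi-square per degree of freedom 7.86). The pair, the rule for like transcripts (largest Pearson correlation on log2 CPM, prior count 2, with 1 of the planned 2 named for each member because no gene names are held) and the tests were chosen with earlier results of these data known. The planned lists of ribosomal protein genes and cell type markers were not run because identifiers could not be paired with genes, with 0 matches.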

Additional observations from a re-analysis of the deposited data

Results flagged for a closer look

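The level of ENSMUST00000074680.7 in Tet2KO RP replicate c, 2508 CPM, and the sum of the pair there, 2548 CPM, lay far from the other 3 libraries of the group, by a gap of 0.861 and 0.868 of the group's range. Such gaps were looked for in 12 sets of 4 libraries (both transcripts, their sum and the share, in 3 groups), and chance marks about 1 in 20. The sets are not independent. ENSMUST00000074680.7 held 98.4% of the pair's counts in this library, so its level and the sum are not separate flags. Without this library the sum in Tet2KO RPs against Tet2KO HSCs was -0.086 on the log2 scale in place of 0.15, and against Control RPs -0.55 in place of -0.31.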

How the results depend on the processing

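The log2 fold changes of both transcripts and their sum, the difference in share and 2 ranks of likeness were recomputed under 281 combinations of result and setting, and 266 kept their direction and side of the threshold or, for untested values, stayed within 1 SD of the libraries. No tested value passed the threshold in any setting run. For Dnmt3aKO against Control HSCs, without the 3 HSC libraries numbered 4 the values were 0.14 (ENSMUST00000029722.6), -0.027 (ENSMUST00000074680.7), 0.14 (sum) and -0.0235 percentage points (share), each opposite in sign to the value reported. Leaving out 1 library gave -0.26 to 0.13 for ENSMUST00000029722.6, -0.052 to 0.25 for ENSMUST00000074680.7, -0.26 to 0.13 for the sum and -0.0263 to 0.127 percentage points for the share. For Tet2KO RPs against Tet2KO HSCs it gave -0.098 to 0.25 for ENSMUST00000074680.7 and -0.086 to 0.25 for the sum. The cause was not tested. With a replicate block on HSC libraries, in Dnmt3aKO against Control HSCs ENSMUST00000074680.7 was at -0.045 and the sum at -0.30 (SE 0.19). In Tet2KO against Control HSCs the sum was then at -0.34 (SE 0.17). The block called no member. Same-numbered HSC libraries deviated together with correlations of 0.039 to 0.25 and others with -0.19 to 0.14, so the numbers do not pair them by a minimum of 0.1 for every pair. Libraries numbered 4 did deviate together across genotypes, at 0.25, 0.20 and 0.23. They were negatively correlated with every library of another number in the other groups. Deviations were taken from group means, so these negative values follow in part from the positive ones. The remaining same-numbered pairs were at 0.039 to 0.099. RP libraries carry no number of their labels and were not blocked. With no scaling beyond the library total, ENSMUST00000029722.6 was at -5.77 in Tet2KO against Control HSCs. That setting moved the median of all transcripts there by 0.13. The Tet2KO fold changes ranged over all settings run from -6.03 to -5.77 and 8.15 to 8.42 in HSCs, and from -5.92 to -5.66 and 7.43 to 7.87 in RPs, and those of the sum from -0.34 to -0.044 and from -0.55 to -0.22. Depth limits the smaller partner most, at 23 to 56 counts in Control and Dnmt3aKO libraries.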
